A study of Homo sapiens with 18 samples.

Results

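Zinc finger genes with the symbol ZNF and a number lie in dense runs on human chromosome 19. Members were all protein-coding genes with such a symbol on chromosome 19 in GENCODE whose mature RNA averaged at least 1 TPM (a length-corrected share of all transcripts in a library) over the 15 labelled libraries. Of the 247 such genes in the authors' TPM table, 208 met this minimum, among 16739 genes of any kind that did. The other 39 genes are not described further, and 3 of them were listed at 0 in every labelled library. Just inside the minimum were ZNF600 at 1.28 TPM, ZNF93 at 1.25 TPM and ZNF578 at 1.24 TPM, and just outside were ZNF888 at 0.881 TPM, ZNF491 at 0.693 TPM and ZNF114 at 0.655 TPM. The comparison sets, at the same minimum, were 221 ZNF genes on other chromosomes and 675 protein-coding genes of chromosome 19 without a ZNF symbol.

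The libraries came from HEK293 cells, a transformed human embryonic kidney line. Cells received 500 µM 4-thiouridine, a uridine analogue that enters RNA as it is made, for 7.5, 15, 30, 45 or 60 min, and the labelled RNA was purified. Each labelling time has 3 libraries, A, B and C, with nothing in the labels on whether separate cultures were used, so a p-value here covers the spread of these samples alone, and that may be technical. Total RNA, with no selection for label, has 3 libraries that differ in method: PA was selected with oligo-dT, and ribosomal RNA was removed with RNase H in RH and with Ribo-Zero in RZ. The spread of the total group and its differences from labelled RNA therefore include the selection method. TPM carry no read depth, so depth is unknown. Of the cell line's markers, VIM ran from 547 to 1043 TPM and KRT18 from 54.8 to 90.0 TPM in total RNA, while the neurofilament gene NEFM stayed between 0.04 and 0.35 TPM. Genes of other cell types were low in total RNA (CD3E and HBG1 were listed at 0 and PECAM1 was at most 0.06 TPM) except the epithelial gene EPCAM (29.02 to 62.0 TPM) and the haemoglobin gene HBA1 (4.64 to 18.8 TPM). Labelled 45 min library B stands apart: it lists 15159 genes above 0, against 18318 to 20407 in the other labelled libraries, and 9 of the 208 members at 0.

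Most proteins of this family carry a KRAB domain near one end and a row of zinc fingers at the other. Each finger holds a zinc ion between a pair of cysteines and a pair of histidines and touches a few bases of DNA, so the row of fingers sets the sequence a protein binds. KRAB recruits TRIM28, which brings the methyltransferase SETDB1, heterochromatin proteins and histone deacetylases to the bound site, and many targets of the family are transposable elements. The genes multiplied by tandem duplication, which is why neighbours on chromosome 19 resemble one another.

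The finger row is the feature that most members share. In the longest coding transcript of GENCODE 29 (GRCh38), found for 207 members, the median was 12 fingers (quartiles 9 and 15), a finger being counted where the translated sequence had a cysteine, 2 to 4 residues, a cysteine, 12 residues, a histidine, 3 to 5 residues and a histidine. Most fingers were in ZNF91 (31), ZNF850 (29) and ZNF845 (26), and fewest in ZNF738 (0), ZNF428 (1) and ZNF414, ZNF446 and ZNF580 (3 each). At least 1 finger was found in 206 members, all fingers lay in the last coding exon in 199, and a KRAB core pattern was found in 147. The pattern is strict and was searched in 1 transcript per gene, so a gene without a match can still have the domain. Members had fewer exons than protein-coding genes at large (median 5 against 9) and coding sequence poor in G and C at the third codon position, with a median of 39.0% against 77.8% for the other chromosome 19 genes and 58.2% for all protein-coding genes. Their 3′ untranslated regions had a median of 1248 nt and 2.08 ATTTA words per kb, against 485 nt and 0 for the other chromosome 19 genes and 1013 nt and 1.60 for all. ZNF genes elsewhere were like the members in exon number (median 5) and 3′ untranslated regions (1291.5 nt). They had 1.52 ATTTA words per kb and 47.9% G and C at the third codon position.

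Fingers can repeat within a gene almost letter for letter. Which gene a read is assigned to depends instead on sequence shared between genes, given after the stretches. The stretches below, chosen after their values were seen, show it for 3 neighbouring fingers of ZNF91, which silences SVA transposable elements, beside a finger of ZNF227, a highly expressed member, and of ZNF304, the member with the largest rise in labelled RNA. Each starts with the codons of the linker that joins fingers, and capitals mark the codons of the 2 cysteines and 2 histidines. Coordinates are GRCh38, and all lie in the last exon of the coding transcript.
ZNF91 finger 3, chr19:23362031-23362114, minus strand: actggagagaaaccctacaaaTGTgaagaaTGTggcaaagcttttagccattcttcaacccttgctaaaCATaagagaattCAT
ZNF91 finger 4, chr19:23361947-23362030, minus strand: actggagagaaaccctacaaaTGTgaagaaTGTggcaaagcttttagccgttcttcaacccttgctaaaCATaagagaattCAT
ZNF91 finger 5, chr19:23361863-23361946, minus strand: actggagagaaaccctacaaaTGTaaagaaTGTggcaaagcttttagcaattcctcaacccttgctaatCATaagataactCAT
ZNF227 finger 3, chr19:44235469-44235552, plus strand: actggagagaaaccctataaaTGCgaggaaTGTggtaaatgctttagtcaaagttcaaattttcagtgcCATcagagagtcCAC
ZNF304 finger 7, chr19:57356941-57357024, plus strand: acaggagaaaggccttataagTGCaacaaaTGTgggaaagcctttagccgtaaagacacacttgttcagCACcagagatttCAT
ZNF91 fingers 3 and 4 had the same base at 83 of 84 positions (98.8%), and fingers 3 and 5 at 78 (92.9%). ZNF91 finger 3 matched that of ZNF227 at 71.4% of positions and that of ZNF304 at 67.9%. Over whole transcripts, the share of 50-base words also found in a transcript of another gene had a median of 1.98%. It was 5.6% in ZNF91 and 0% in ZNF227 and ZNF304, and it exceeded 10% in 51 of 207 members. The other gene could be a similar gene at another locus, as for ZNF587B (37.8%), ZNF417 (40.1%) and ZNF587 (20.2%). It could also be a readthrough entry over the same locus, as for ZNF177, which shared 97.8% of its words with ZNF559-ZNF177. Words were counted in a later GENCODE release than the one used for TPM. The share therefore does not measure how many reads were split, and values of such members are uncertain where the counting split reads. For these 51 members the median log2 change from 7.5 to 60 min was 0.78, against 0.84 for the 69 members with 1 to 10% and 1.10 for the 87 below 1%.

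Promoters of members often held the core word of ETS transcription factors, CCGGAAG on either strand. In the RefSeq promoter table (GRCh38.p14, 250 bases before to 50 after the gene's start), 186 members matched by symbol and 89 of these windows (47.8%) held the word. The share was 37.2% of 183 windows of ZNF genes elsewhere, 19.1% of 551 windows of other chromosome 19 genes, 19.8% of those of expressed protein-coding genes and 10.7% of all 27305 windows of this length. TATAAA on either strand was in 4 of the members' windows (2.15%), against 4.37% for ZNF genes elsewhere, 5.44% for other chromosome 19 genes, 5.23% for expressed protein-coding genes and 11.95% of all windows. The ZNF180 and ZNF175 windows hold the ETS word, in capitals, and the ZNF304 window does not, though all 3 genes are among the 10 members with the largest rise described next.
ZNF180 promoter, chr19:44500473-44500772, minus strand: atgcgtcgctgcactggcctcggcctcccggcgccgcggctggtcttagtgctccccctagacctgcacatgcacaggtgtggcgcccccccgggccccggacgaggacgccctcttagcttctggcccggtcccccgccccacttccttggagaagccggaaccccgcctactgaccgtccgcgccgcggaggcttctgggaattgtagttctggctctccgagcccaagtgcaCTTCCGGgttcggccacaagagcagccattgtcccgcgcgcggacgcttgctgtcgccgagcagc
ZNF175 promoter, chr19:51571033-51571332, plus strand: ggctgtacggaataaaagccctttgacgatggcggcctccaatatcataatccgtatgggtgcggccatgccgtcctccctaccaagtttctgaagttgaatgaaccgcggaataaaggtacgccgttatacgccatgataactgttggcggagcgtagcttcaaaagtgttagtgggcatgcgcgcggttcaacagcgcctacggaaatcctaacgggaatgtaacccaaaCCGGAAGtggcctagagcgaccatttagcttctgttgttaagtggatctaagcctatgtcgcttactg
ZNF304 promoter, chr19:57351021-57351320, plus strand: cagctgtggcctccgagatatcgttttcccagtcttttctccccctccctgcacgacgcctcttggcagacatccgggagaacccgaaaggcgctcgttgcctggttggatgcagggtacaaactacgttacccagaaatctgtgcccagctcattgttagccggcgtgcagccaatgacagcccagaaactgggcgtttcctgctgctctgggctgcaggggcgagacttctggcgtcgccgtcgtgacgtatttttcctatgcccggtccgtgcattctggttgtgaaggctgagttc
A match describes letters only. Of the 89 members with the word 31 were called higher at 60 min (median log2 change 0.82), and of the 97 without it 48 (median 1.03). This difference was not tested.

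Mature RNA of the members took a growing share of labelled RNA as labelling went on. The summed mature TPM of the 208 members was 3685, 5067 and 4699 in the 3 libraries at 7.5 min and 7863, 8400.2 and 9190.15 at 60 min, so the groups did not overlap. In total RNA the sum was 2403 (PA), 1969 (RH) and 1585 (RZ), below every labelled library. The median member rose from 14.8 ± 2.30 TPM at 7.5 min to 16.8 ± 4.47 at 15 min and 23.9 ± 4.27 at 30 min (SD over the libraries' medians, n = 3 each). Levels differed widely between members: the mean over labelled libraries ran from 1.24 TPM to 258 TPM in ZNF146, with a median of 23.2 TPM.

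**Figure D1:**
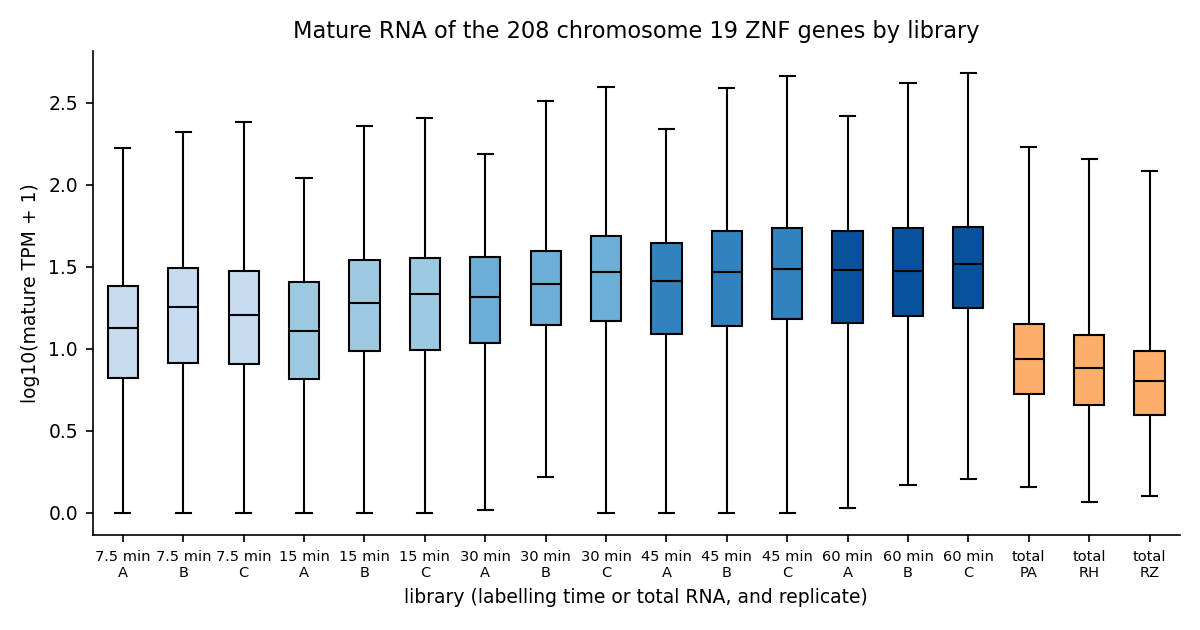
Mature RNA of the 208 chromosome 19 ZNF genes in each of the 18 libraries, as log10(TPM + 1); boxes span the quartiles of members, the line the median and whiskers the lowest and highest member. The 7.5 min libraries had medians of 12.4, 17.0 and 15.0 TPM, and the total libraries 7.62, 6.64 and 5.41 TPM.

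The first comparison asked which members gained or lost weight in labelled RNA between 7.5 and 60 min. Of 208 members 87 were higher and 1 was lower at 60 min (limma adjusted p under 0.05, all 15 labelled libraries in the fit), where 15.8% of all 16739 genes tested were higher and 4.21% lower. The median member changed by 0.98 on the log2(TPM + 1) scale (quartiles 0.41 and 1.48), against 0.24 for all genes, and 190 members had a positive change. ZNF genes elsewhere were close, with 82 higher and 2 lower of 221 and a median of 0.75. Other genes of chromosome 19 were not, with 101 higher and 70 lower of 675 and a median of 0.20. In 129 members (62.0%) all 3 libraries at 60 min lay above all 3 at 7.5 min, where 29.8% of all genes did so.

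These values are relative to all other RNA in a library. When libraries were brought to a common median (median-ratio scaling), the median of all genes fell to -0.05 and that of the members to 0.64, and 54 members were higher and 1 lower, where 7.74% of all genes were higher and 7.81% lower. The calls were held under all 3 other scalings tried by 52 of the 87 members, also by 52 when each of the 6 libraries compared was left out in turn, and by 47 in all of these.

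The change built up with time. At 15 min no member was called higher or lower by limma, and 0.0418% of all genes were called higher. An unadjusted p under 0.05 was found for 21 of 208 members and 1482 of 16739 genes, close shares. At 30 min 35 members were higher and 1 lower, with 5.70% of all genes higher, and the median member changed by 0.58. By 45 min 73 were higher and 1 lower, with 12.3% of all genes higher, and the median member changed by 0.73. These comparisons share the 7.5 min libraries.

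**Figure D2:**
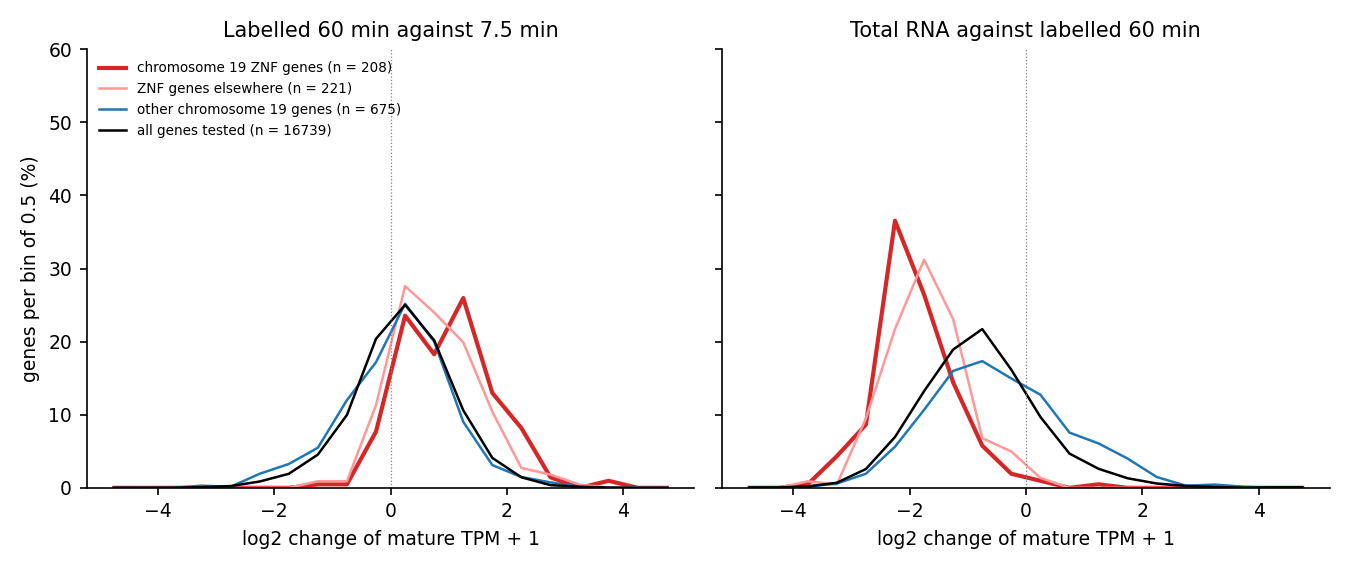
Share of genes (%) in bins of 0.5 of the log2 change of mature TPM + 1, for the members, the comparison sets and all genes tested; the left panel compares labelled RNA at 60 with 7.5 min and the right panel total with labelled 60 min RNA. The members' medians are 0.98 and -1.99, against 0.24 and -0.83 for all genes.

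ZNF304, a KRAB repressor with 16 fingers (ENSG00000131845.10), rose most. Its mature RNA was 2.87, 7.15 and 1.04 TPM at 7.5 min, 27.0, 19.9 and 31.1 TPM at 30 min and 51.25, 44.1 and 48.0 TPM at 60 min. All 3 libraries at 60 min lay above those at 7.5 min, for a log2 rise of 3.60 ± 0.47 (SE, limma adjusted p = 0.00011). Its primary transcript, the unspliced RNA over the whole gene, moved the other way, from 17.8, 13.1 and 19.1 TPM at 7.5 min to 6.38, 9.24 and 9.53 TPM at 60 min. The unspliced RNA thus exceeded the spliced RNA in all 3 early libraries and was below it in all 3 late ones.

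ZNF628, a member without a KRAB match whose coding sequence is rich in G and C, came next. Mature levels were 1.72, 1.26 and 0.40 TPM at 7.5 min and 36.5, 28.1 and 12.4 TPM at 60 min, with no overlap and a log2 rise of 3.58 ± 0.48 (SE, limma adjusted p = 0.00014). ZNF615, with a KRAB match and 19 fingers, went from 2.26, 4.03 and 4.74 TPM to 25.3, 25.8 and 24.7 TPM. The log2 difference was 2.53 ± 0.34 (SE, limma adjusted p = 0.00012), and its late libraries lie close together. ZNF175 went from 3.11, 3.67 and 2.90 TPM to 23.75, 19.1 and 21.6 TPM (log2 change 2.41 ± 0.30, SE). ZNF180, whose promoter is shown above, went from 6.31, 14.4 and 10.2 TPM to 57.5, 48.9 and 52.8 TPM (2.32 ± 0.32, SE). Both passed the limma test with no overlap between groups.

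The other 5 of the 10 largest rises also varied between libraries at 7.5 min. ZNF766 read 4.30, 13.9 and 0.89 TPM at 7.5 min against 32.4, 31.0 and 34.6 TPM at 60 min, and without 7.5 min library C its adjusted p was 0.080. ZNF329 read 1.80, 4.97 and 12.2 TPM against 37.0, 34.0 and 33.4 TPM. ZNF587B read 0.77, 33.55 and 31.3 TPM against 61.5, 67.0 and 70.4 TPM. Library A at 7.5 min stands apart, and without it the log2 change was 1.01 in place of 2.42. Its call (limma adjusted p = 0.037) was lost under all 3 scalings (adjusted p of 0.072 to 0.077) and without any 1 of the 60 min libraries (0.084 to 0.094), and it shares sequence with ZNF814. ZNF699 was listed at 0 in library A at 7.5 min, 4.15 in B and 0.56 TPM in C, against 8.07, 7.14 and 13.5 TPM. ZNF433 was likewise listed at 0 in library A, with 0.57 and 2.13 TPM in the others, against 6.28, 5.79 and 11.2 TPM, and its adjusted p rose to 0.063 without 7.5 min library A and to 0.067 without 60 min library C.

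ZNF428 was the only member called lower. It is a small protein of 188 residues with 1 finger and no KRAB match. Mature levels were 61.3, 51.8 and 60.2 TPM at 7.5 min and 28.85, 28.4 and 19.8 TPM at 60 min, with no overlap. The log2 change was -1.15 ± 0.35 (SE, limma adjusted p = 0.031), and leaving out any 1 of these 6 libraries raised the adjusted p to between 0.058 and 0.12. Total RNA held 46.0 (PA), 19.7 (RH) and 32.5 TPM (RZ), a range that overlaps labelled RNA at 60 min.

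**Figure D3:**
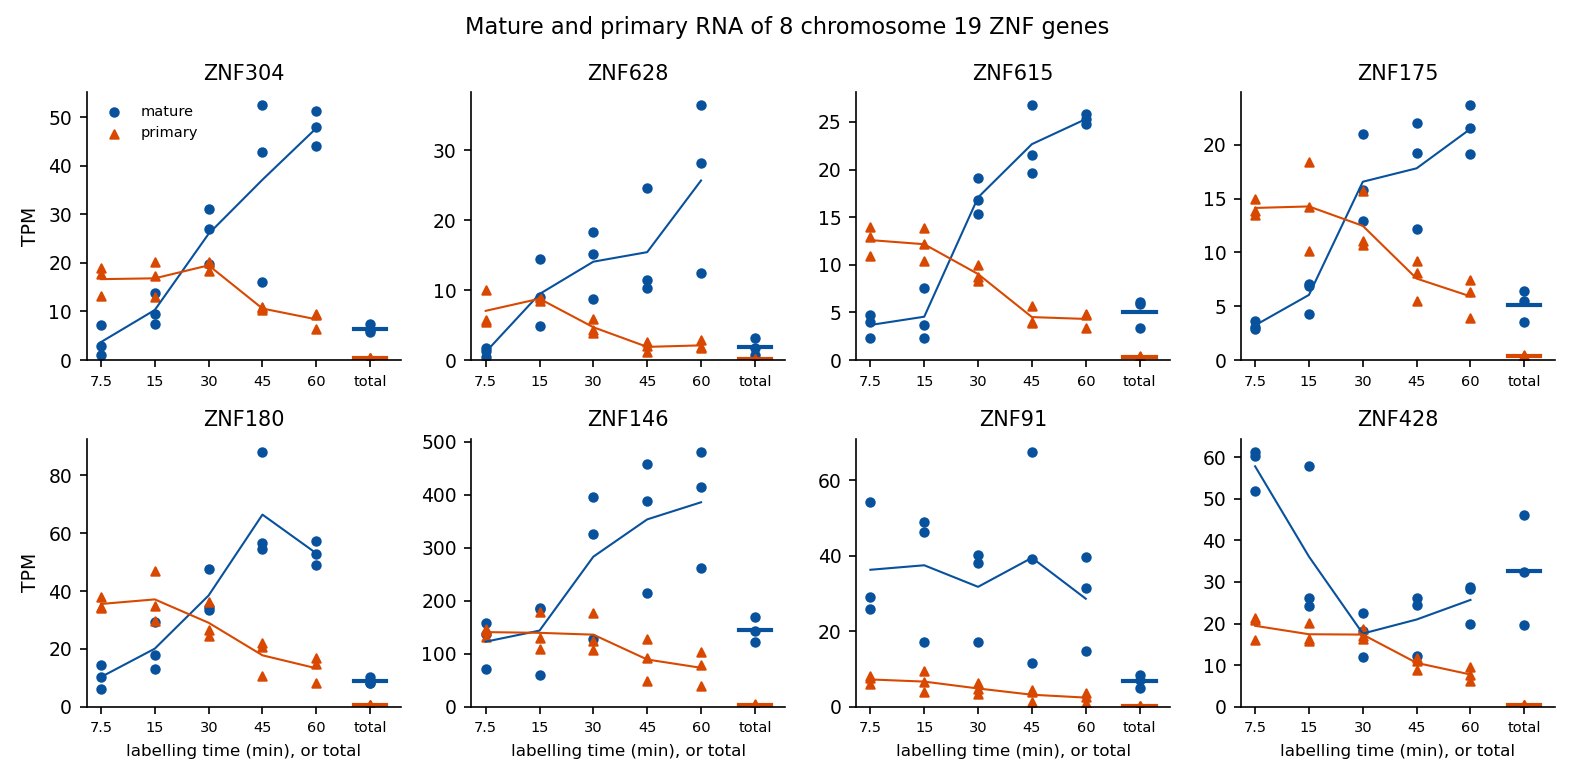
Mature (blue circles) and primary (orange triangles) TPM of 8 members in each library; groups are evenly spaced along the horizontal axis, lines join the means of labelled groups and bars mark the means of total RNA. Mature and primary RNA cross in ZNF304, ZNF615, ZNF175 and ZNF180, while mature ZNF428 is highest at 7.5 min.

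The 8 most abundant members did not all rise. ZNF146, which consists of little besides 10 fingers, led with 71.9, 159 and 138 TPM at 7.5 min and 261, 415 and 481 TPM at 60 min. Its log2 rise of 1.67 ± 0.49 (SE) passed with a limma adjusted p = 0.025. The call was lost under median-ratio scaling (limma adjusted p = 0.052) and without 7.5 min library A or C or 60 min library B or C (limma adjusted p of 0.050 to 0.11). ZNF121 went from 41.6, 134 and 103.5 TPM to 193, 252 and 274 TPM (1.50 ± 0.34, SE), ZNF574 from 61.8, 30.85 and 39.3 to 179, 120.0 and 98.2 TPM (1.58 ± 0.31, SE) and ZNF507 from 110.0, 97.4 and 125 to 171.5, 172 and 162 TPM (0.61 ± 0.18, SE). These 3 passed, though ZNF507 missed the threshold under each scaling. ZNF227, ZNF460, ZNF226 and ZNF587 did not pass (log2 changes 0.40, 0.61, 0.29 and 0.26), and ZNF226 and ZNF587 turned negative under median-ratio scaling (-0.055 and -0.081). ZNF227 read 167, 209 and 241 TPM at 7.5 min and 253, 257 and 297 TPM at 60 min, so the groups did not overlap but the change did not pass (limma adjusted p = 0.36).

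Members with a known target or partner varied. ZNF91, with the longest finger row, read 25.8, 54.1 and 28.97 TPM at 7.5 min and 14.7, 31.45 and 39.8 TPM at 60 min (log2 change -0.36 ± 0.58, SE). These groups overlap, and without 60 min library A the change was 0.04. ZNF93, which represses LINE-1 elements, was low, at 0.15, 0.26 and 0.34 TPM at 7.5 min and 2.55, 0.49 and 2.54 TPM at 60 min. It did not pass (1.09 ± 0.57, SE). ZNF274, which binds the coding ends of other zinc finger genes and recruits SETDB1 there, rose from 46.1, 34.7 and 22.7 TPM to 89.5, 81.0 and 89.5 TPM (1.36 ± 0.25, SE, limma adjusted p = 0.0016). ZNF350, a partner of BRCA1, rose from 9.29, 6.95 and 12.9 TPM to 29.7, 26.3 and 27.7 TPM (1.47 ± 0.32, SE). ZNF765, ZNF649 and ZNF444 had changes of 0.66, 0.17 and 0.25 and did not pass, and the signs of ZNF649 and ZNF444 turned under median-ratio scaling (-0.18 and -0.084).

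Along the chromosome, members were split into 15 runs wherever neighbours lay over 1 Mb apart in GENCODE 29. The long arm held 145 members, 66 of them higher at 60 min and a median change of 1.02 (log2), and the short arm 62 members, 21 of them higher, with a median of 0.82. The lowest median of a run with more than 1 member was 0.53, in the 25 members from ZNF101 to ZNF254, which hold ZNF91 and ZNF93, and 4 of them were higher. The highest was 1.88, in the 5 members from ZNF302 to ZNF792, 3 of them higher. The longest run, the 51 members from ZNF628 to ZNF446 towards the end of the long arm, had 24 higher and a median of 1.03. These are descriptions, since duplicated neighbours are not independent.

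The share of members called higher was close with and without a KRAB match. Of 147 members with a KRAB match 62 were higher (median log2 change 0.88) and of 60 without it 25 (median 1.02). Since the class without a match can hold genes with the domain, this does not compare genes with and without KRAB. The 11 members with 0 to 5 fingers had a median of 0.42 with 3 higher, and the 48 with 16 or more had a median of 1.00 with 22 higher. Between them, the 60 with 6 to 10 fingers had a median of 1.03 with 26 higher. The 88 with 11 to 15 had 0.93 with 36 higher. Across members, the change and the number of fingers had a Pearson r of 0.05 and a Spearman rho of 0.04 (n = 207, across genes of shared libraries, as a description). Calls were more frequent at higher levels, with 44 of 78 members above 30 TPM, 33 of 88 from 10 to 30 TPM and 10 of 42 below 10 TPM, while the medians were 1.00, 0.95 and 0.77.

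The proteins that KRAB domains recruit were read from a list of 28 genes of the TRIM28 pathway, of which 27 were matched and reached the minimum. By the same test 10 of the 27 were higher at 60 min and none lower, where 15.8% of all genes were higher and 4.21% lower. Their median log2 change was 0.48, against 0.24 for all genes. TRIM28 itself, the central corepressor, rose by 0.74 ± 0.24 (SE, limma adjusted p = 0.044). Among the 10 that passed, the largest changes were in MTA2 (1.49), a deacetylase complex subunit, SUV39H1 (1.46), a histone methyltransferase, and CBX3 (1.29), a heterochromatin protein. SMARCAD1 (1.12), a chromatin remodeller, FAM208A (1.01), the HUSH complex subunit now called TASOR, and TRIM33 (0.87), a relative of TRIM28, followed. Others went the other way without passing. ATRX changed by -1.21 ± 0.43 (SE, limma adjusted p = 0.058) and PPHLN1 by -0.72 ± 0.38 (SE). In both, all libraries at 60 min lay below those at 7.5 min. SETDB1 changed by 0.15 ± 0.26 (SE) and did not pass. In total against 60 min RNA 14 of the 27 were lower, where 39.6% of all genes were, and 1, SUMO2, was higher. Their median of -0.90 was near that of all genes (-0.83).

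The second comparison set total RNA, which holds RNA of all ages, against labelled RNA at 60 min. In total RNA 184 of 208 members were lower and none higher (limma adjusted p under 0.05, all 18 libraries), where 39.6% of all genes were lower and 4.72% higher. The median member changed by -1.99 (quartiles -2.26 and -1.55), against -0.83 for all genes, -1.73 for ZNF genes elsewhere and -0.55 for other chromosome 19 genes. In 193 members (92.8%) all 3 total libraries were below all 3 at 60 min, where 51.5% of all genes were. Under median-ratio scaling the median of all genes was -0.07 and that of members -1.07, with 122 lower and 1 higher, where 15.0% of all genes were lower and 16.4% higher. Under quantile normalization 99 were lower, where 14.4% of all genes were. The 60 min libraries serve in this comparison and in the first, so both move with them.

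ZNF574, an 18-finger protein, differed most. It read 179, 120.0 and 98.2 TPM at 60 min and 15.7 (PA), 9.11 (RH) and 7.57 TPM (RZ) in total RNA, a mean 12.3-fold lower and a log2 difference of -3.52 ± 0.33 (SE, limma adjusted p = 6.8e-07). ZNF551, with a KRAB match, read 109.5, 100.6 and 104 TPM against 10.7, 8.18 and 8.51 TPM (-3.39 ± 0.23, SE). ZNF628, which also led the labelled rise, read 3.14, 1.69 and 0.65 TPM in total RNA (-3.21 ± 0.49, SE). ZNF587B and ZNF526 complete the 5 largest differences, with -3.14 ± 0.71 and -3.13 ± 0.26 (SE). No total library overlapped the 60 min libraries in these 5 genes, and all passed.

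Few members were as strong in total as in labelled RNA, with a positive change in 3 of 208. The most abundant member, ZNF146, and ZNF91 were not among these. ZNF146 read 169 (PA), 142 (RH) and 121 TPM (RZ) in total RNA, 2.67-fold below its 60 min mean, which passed with a limma adjusted p = 0.023. That call was lost under median-ratio scaling (limma adjusted p = 0.55) and without 60 min library B or C or total library RH or RZ (limma adjusted p of 0.053 to 0.089). ZNF444, which has a SCAN domain in place of KRAB, read 26.9, 11.8 and 8.59 TPM in total RNA against 29.6, 25.9 and 20.9 TPM at 60 min. Its change of -0.80 ± 0.38 (SE) did not pass with all libraries, passed without PA (-1.24, adjusted p = 0.010) and turned to 0.15 under both other scalings. ZNF580 and ZNF358 had the highest total level in PA (55.5 and 38.9 TPM) and the lowest in RZ (5.13 and 11.9 TPM), and neither passed. ZNF91 passed (-1.83 ± 0.55, SE, limma adjusted p = 0.011). It did not pass under median-ratio scaling (limma adjusted p = 0.17) or quantile normalization (limma adjusted p = 0.26), nor without 60 min library C (limma adjusted p = 0.058) or total library RZ (limma adjusted p = 0.052).

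In copies per cell, as the authors estimated them, the median member was below the median gene. It was 0.810 copies in PA, 2.82 in RH and 1.16 in RZ, against 1.63, 4.76 and 1.84 for all protein-coding genes. Fewer than 1 copy was given for 62.0% of members in PA, 14.4% in RH and 43.75% in RZ, against 35.0%, 15.1% and 33.9% of all protein-coding genes, so by this count members were not rarer in RH. The spread between the 3 methods was wider than the gap between members and all protein-coding genes within a method. Fewer cells with an RNA and less of it per cell cannot be told apart in such bulk libraries.

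Splicing was then followed through the unspliced share, which is primary TPM as a percent of primary plus mature TPM. For the median member it was 51.9, 42.8 and 45.4% in the 7.5 min libraries and 11.1, 15.2 and 16.3% at 60 min, and in total RNA it was 4.17 (PA), 6.11 (RH) and 4.50% (RZ). All-gene medians were 39.3, 38.4 and 38.9% at 7.5 min, so the members' median was higher in each early library. At 60 min they were 11.4, 15.9 and 17.2%, close to the members in each library. In total RNA they were 2.05, 3.31 and 2.45%, again below the members. Other chromosome 19 genes began lower, at 24.7 ± 1.37% (SD, n = 3). ZNF genes elsewhere were like the members, at 45.6 ± 3.96% at 7.5 min and 5.07 ± 0.93% in total RNA, against 46.7 ± 4.69% and 4.93 ± 1.04% (SD, n = 3).

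On the log2 scale of primary over mature TPM, 171 of 207 members with a primary value were lower at 60 than at 7.5 min and none higher (limma adjusted p under 0.05), where 62.8% of 13879 genes were lower. The median change was -2.43, against -1.81 for all genes and -0.88 for other chromosome 19 genes. ZNF628 had one of the larger changes, -6.13 ± 0.66 (SE), and ZNF428 almost none, -0.14 ± 0.48 (SE). Between 60 min and total RNA, 125 members fell further and 2 rose, where 70.3% of all genes fell, and the median change was -1.26 against -2.17. The last comparison depends on the pseudocount: with 1 in place of 0.1, 21 members were lower. The share of all genes at that pseudocount is not given here, so this drop is not read as particular to the members.

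The primary transcripts themselves were lower at 60 than at 7.5 min in 173 of 207 members, where 60.7% of 20012 genes were, with a median log2 change of -1.16 against -0.79. With the 2 scalings that give libraries a common distribution or median the members no longer moved as a group. Under median-ratio scaling the median was 0.04, 42 were higher and 18 lower, and under quantile normalization it was -0.05, 27 were higher and 22 lower. All-gene medians under these scalings were 0.04 and -0.02, close to the members' medians. Of all genes 14.8% were higher and 16.1% lower under median-ratio scaling, against 20.3% and 8.70% of members, and under quantile normalization 12.2% and 17.8%, against 13.0% and 10.6% of members. Examples are ZNF460 (73.75, 50.02 and 57.7 TPM at 7.5 min, then 9.44, 14.4 and 14.7 TPM) and ZNF227 (98.3, 97.7 and 111 TPM, then 17.5, 31.5 and 41.2 TPM). ZNF526 barely changed, at 14.1, 11.2 and 14.4 TPM and then 9.79, 9.95 and 12.01 TPM.

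**Figure D4:**
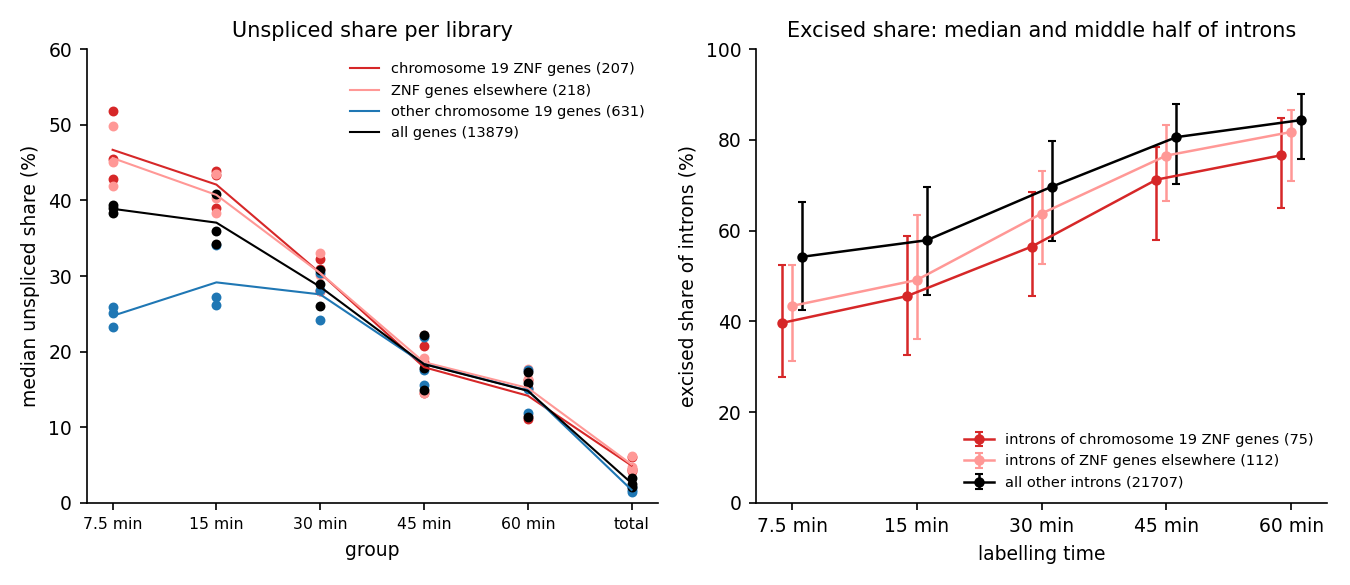
Left, median unspliced share (%) of the members and comparison sets in each library (points) and their group means (lines); right, excised share of introns (%) at each labelling time, with medians and bars between the quartiles of introns. Members start at 42.8 to 51.9% unspliced and join all genes by 60 min, while the median of their introns is below that of all other introns at each time.

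Single introns gave a second view, since the authors listed the share of junction reads in which an intron was excised, averaged over replicates. Only introns with more than 5 reads in all 3 replicates were listed, which left 75 introns in 32 of the 208 members, 13 of which had 1 intron. The median excised share was 39.7% at 7.5 min, 45.6% at 15, 56.5% at 30, 71.25% at 45 and 76.6% at 60 min. For 21707 other introns it was 54.2, 57.9, 69.7, 80.6 and 84.4%, higher at each time. ZNF genes elsewhere lay between, at 43.4% at 7.5 min and 81.8% at 60 min in 112 introns. A higher share at 60 than at 7.5 min was the rule everywhere, in all 75 introns of members, 111 of the 112 and 20521 of the 21707. No replicate values are given for these shares, so no test was made.

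The authors' classes of excision put 29 of the 75 introns (38.7%) in the slow class and 10 (13.3%) in the fast class, against 17.6% and 39.4% of other introns and 26.8% and 21.4% of introns in ZNF genes elsewhere. Members' introns were longer, with a median of 2244 bases against 1422. Within 1 to 10 kb members were still below other introns, with 73.3% excised at 60 min in 40 introns against 84.4%. Under 1 kb the gap at 60 min was smaller, with 81.98% in 23 introns of members against 84.4%. Over 10 kb the shares at 60 min were 74.6% in 12 introns of members and 84.5% in others. ZNF genes elsewhere did not lie between in every length class. They were below the members under 1 kb at 60 min (79.2%) and within 1 to 10 kb at 7.5 min. With 1 intron per gene the share at 60 min was 77.03% in members against 82.8% in other introns. Splice site scores were close to those of other introns (median 9.11 against 8.76 at the 5′ site and 8.44 against 8.73 at the 3′ site). Alternative use was listed for 17.3% of members' introns (13 of 75), 12.5% of introns in ZNF genes elsewhere (14 of 112) and 5.49% of all other introns.

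The lowest shares at 60 min were in ZNF283 (43.9%, intron at chr19:44332434-44335469, hg19, 3036 bases), ZNF544 (44.9%, chr19:58757794-58758111, 318 bases, and 49.2%, chr19:58755423-58757666, 2244 bases) and ZNF586 (48.5%, chr19:58288038-58290118, 2081 bases). In ZNF586 the share had been 14.8% at 7.5 min. The first ZNF544 intron is one that the authors class as alternative. The highest shares were in ZNF791 (93.3%, chr19:12734641-12735463), ZNF829 (92.7%, chr19:37405925-37406031), ZNF507 (91.1%, chr19:32845864-32847521) and ZNF121 (89.5%, chr19:9678852-9679677). ZNF791 stood at 84.7% by 7.5 min, while ZNF121 went from 36.4 to 89.5%.

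The authors' rate table gives centred scores per gene for synthesis and degradation, estimated from these labelled and total libraries, so it is not independent of the values above, and no test was made. It holds 184 members. Their median degradation score was 0.21 (quartiles 0.12 and 0.32), against -0.04 for all 15120 genes, 0.18 for ZNF genes elsewhere and -0.22 for other chromosome 19 genes. Read as log10 rates, which the authors' linear rates bear out closely (slope 0.951 over 4163 genes), this is a 1.79-fold faster degradation than the median gene. Of the 184 members 171 (92.9%) lay above the median of all genes. Among genes with a mean of 1 to 20 TPM the fold was 1.61 and 82.7% of 75 members lay above.

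Highest degradation scores were in ZNF418 (0.62), ZNF586 (0.56), ZNF417 (0.53), ZNF792 (0.53) and ZNF264 (0.53), all with a KRAB match. ZNF264 read 70.4, 74.75 and 81.1 TPM at 60 min and 7.66, 9.69 and 6.38 TPM in total RNA. Lowest were ZNF580 (-0.52), ZNF358 (-0.51), ZNF428 (-0.36), ZNF93 (-0.18) and ZNF444 (-0.11), of which only ZNF93 has a KRAB match. Beyond these extremes the classes were close, with a median score of 0.21 for 128 members with a KRAB match and 0.18 for 55 without. Here too the class without a match can hold genes with the domain. ZNF580, ZNF428 and ZNF444 have 1 to 4 fingers. Members with 0 to 5 fingers had a median score of 0.03 (9 genes), against 0.23 for those with 16 or more (41 genes). The classes between did not form a gradient, with 0.22 for 6 to 10 fingers (54 genes) and 0.20 for 11 to 15 (79 genes). Across 183 members the score and the number of fingers had a Pearson r of 0.20 and a Spearman rho of 0.13.

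Synthesis was not low. The median score was 0.27 against 0.12 for all genes and 0.20 for protein-coding genes. ZNF genes elsewhere had 0.26, and other chromosome 19 genes were above the members at 0.32. Members had to reach the minimum in labelled RNA, while all genes of the rate table did not. Scores were highest in ZNF146 (1.29), ZNF227 (1.19) and ZNF121 (1.04) and lowest in ZNF257 (-1.22), ZNF93 (-1.02) and ZNF600 (-0.92). Processing scores, used for order only since the sources give no log base for them, were highest in ZNF574, ZNF584 and ZNF675 and lowest in ZNF579, ZNF155 and ZNF780B. ZNF155 kept much unspliced RNA, with primary levels of 37.7, 44.1 and 41.3 TPM at 7.5 min and still 19.7, 31.7 and 31.4 TPM at 60 min, while its mature RNA rose from 13.8, 19.3 and 18.1 to 85.05, 59.3 and 81.1 TPM.

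The table also holds scores from other libraries of these cells, namely cell fractions and ribosome profiling. Their cytoplasmic to nuclear score had a median of -0.11 against 0.03 for all genes, and 45 of 184 (24.5%) lay above the all-gene median. The polysome to cytosol score had a median of -0.26 against -0.05, and the translation score 0.07 against 0.44, with 24.5% of members above the median of all genes. All genes include non-coding ones, and protein-coding genes alone had a median translation score of 0.78. ZNF genes elsewhere were like the members (-0.096, -0.19 and 0.076), and other chromosome 19 genes lay on the far side in all 3 (0.099, 0.17 and 1.21). Within genes of 1 to 20 TPM, members above the median were 30.7% for the cytoplasmic score, 36.0% for the polysome score and 37.3% for translation. At that level ZNF genes elsewhere had 44.9, 39.3 and 41.6%, so they were less like the members in the cytoplasmic score.

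By the authors' clustering of these measures, 123 of the 184 members (66.8%) fell in cluster c3 and 45 (24.5%) in c4, where all genes had 21.8% and 17.0%. The split varied with level: among genes of 1 to 20 TPM, 26.7% of 75 members were in c3 and 60.0% in c4. All genes of that level had 10.6% and 37.8%. Cluster c3 has positive median scores for synthesis (0.36) and degradation (0.11) and negative ones for the cytoplasmic (-0.17) and polysomal (-0.25) balance. ZNF genes elsewhere had 59.7% in c3 and other chromosome 19 genes 21.2%. ZNF146 and ZNF428 are the 2 members in cluster c1, whose median degradation score is the lowest of the 7 (-0.39).

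**Figure D5:**
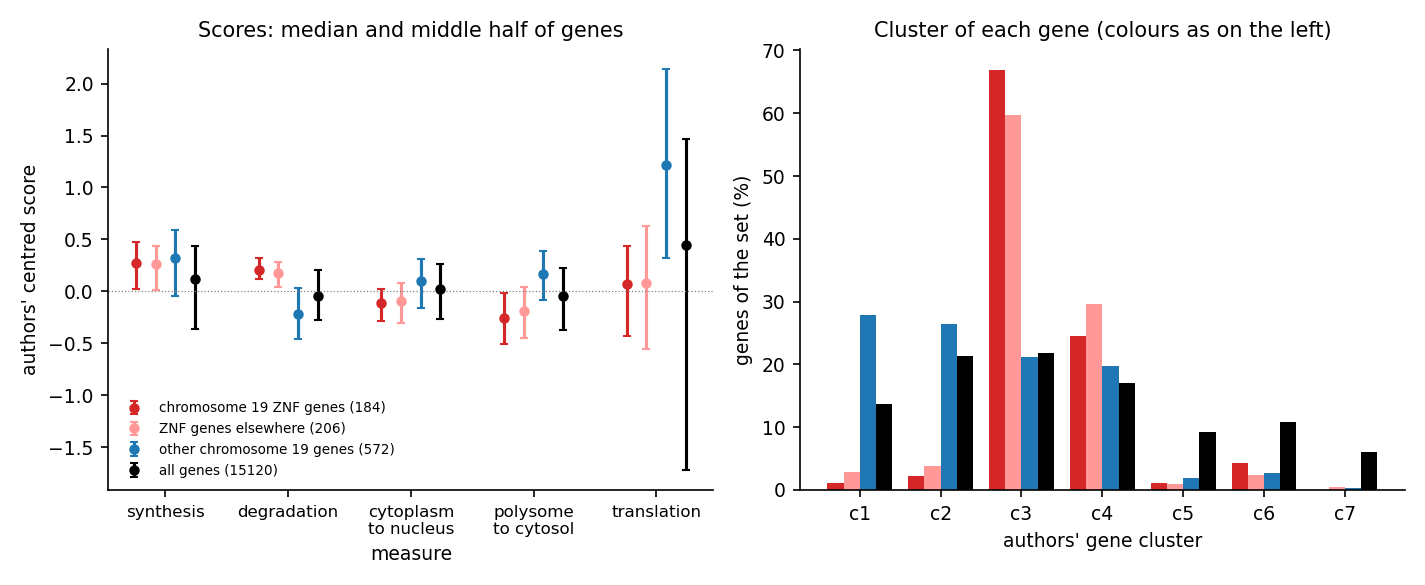
Left, the authors' centred scores for 5 measures (points, medians; bars, quartiles of genes) in the members and comparison sets; right, the share of each set (%) in each of the authors' 7 gene clusters. Members have a median degradation score of 0.21 against -0.04 for all genes, and 66.8% of them are in cluster c3.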

How the data were processed

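Per the labels, labelled RNA was sequenced in 15 libraries and total RNA in 3. Per the submitters' processing notes, reads were handled with RSEM 1.2.11, Bowtie 1.0.1 and hg19. Per the file headers and the text deposited with them, the authors quantified TPM on GENCODE 19 with an added isoform spanning the whole locus of each gene, called primary, while mature sums the other isoforms. RSEM divides reads that fit several copies, which bears on similar zinc finger genes. The authors' copies per cell are signal values based on spike-ins, used as deposited. The authors' excised shares are fractions averaged over replicates, printed here as percent. Intron lengths were deposited as log10 bases. Splice site strengths and INSPEcT gene rates were deposited as scores, and the authors treated the labelling times as pseudo-replicates when estimating rates. Degradation and synthesis scores were checked against the authors' linear rates.

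Gene names came from GENCODE 29, matched by gene identifier for 82.6% of entries and 91.0% of those at the minimum. Older entries outside it could not be members or join the named comparison sets, but those at the minimum stayed among all genes tested. Values were tested as log2(mature TPM + 1), and ratios as log2((primary + 0.1)/(mature + 0.1)), with limma 3.58.1 in R 4.3.3 (trend, Benjamini-Hochberg over all genes tested, threshold 0.05), after a test on simulated data. Genes needed a mean of 1 mature TPM, and 0.1 primary TPM for primary values and ratios. TPM keep no depth, so no counting interval is given. Same-lettered 7.5 and 60 min libraries deviated together in primary values (correlations 0.39, 0.18 and 0.20), a pairing taken from the library letters and these correlations, though 60 min library C lay as near to 7.5 min library B (0.20), and the replicate block gave 188 members lower in place of 173. Zinc fingers were counted in translated GENCODE 29 transcripts with Python 3.11.15, since no protein table was used. The genes named are the 8 most abundant members, the 10 largest rises without overlap, all members lower and the 5 largest differences in total RNA. Also named are the extremes of the rate scores, of finger number and of intron excision, and genes next to the minimum. Partner genes are those with the largest change among the genes that passed, with ATRX and PPHLN1 added for their opposite sign. A further 10 were fixed by name (ZNF91, ZNF93, ZNF274, ZNF350, ZNF304, ZNF146, ZNF765, ZNF649, ZNF628 and ZNF444). ZNF155, ZNF417, ZNF460 and ZNF526 primary values and the sequences shown were chosen after their values were seen. The members and lists were chosen with earlier results of these data known. Other pseudocounts, filters, scalings, library sets and intron or gene subsets were tried.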

Additional observations from a re-analysis of the deposited data

How the results depend on the processing

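The number of members higher at 60 than at 7.5 min was 87 as reported, 54 under median-ratio scaling and 57 when TPM were rescaled to mature transcripts only, and from 63 (without 7.5 min library A or 60 min library C) to 96 (without 45 min library B) when 1 library was left out. The number lower in total RNA was 184, then 122 under median-ratio scaling and 99 under quantile normalization, and from 163 to 179 with 1 library left out. For primary RNA it was 173, then 18 and 22 under those scalings, and from 142 to 174. For the ratio of primary to mature RNA it was 171 between 7.5 and 60 min (156 to 169), and 125 in total RNA, with 21 at a pseudocount of 1 and from 88 to 134 with 1 library left out. The cause of these shifts was not tested, and all-gene shares are not given for the other pseudocount or the left-out libraries. The replicate block, with the library letter as a block, gave 109 members higher in mature RNA and 174 lower in the ratio. The letters are not shown to pair these values, since same-letter correlations in mature RNA were 0.27, 0.084 and 0.089, and 60 min library C lay nearest to 7.5 min library B (0.13).

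Signs of single genes turned in 14 alternatives. Under median-ratio scaling, the changes at 60 min were -0.055 (ZNF226), -0.084 (ZNF444), -0.081 (ZNF587) and -0.18 (ZNF649), and those in total RNA 0.15 (ZNF444) and 0.019 (ZNF93). Under quantile normalization they were -0.085 (ZNF444) and -0.093 (ZNF649) at 60 min and 0.15 (ZNF444) and 0.44 (ZNF93) in total RNA. With TPM rescaled over mature transcripts ZNF649 had -0.068. With 1 library left out, ZNF226 ran from -0.013 (without 7.5 min library A) to 0.55, ZNF587 from -0.077 (without 7.5 min library A) to 0.56, and ZNF91 from -0.65 to 0.040 (without 60 min library A). None of these genes passed at 60 min. Of the other alternatives of 40 single-gene results, 701 kept their direction and call, 46 lost the call and 2 gained it.

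Depth is unknown, 32 of 208 members have a listed intron, and members that share sequence depend on how reads were divided between copies. Each group has 3 libraries, and those of total RNA differ in method.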
